A study of Mus musculus with 30 samples.

Results

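Acyl-CoA synthetases and acyl-CoA thioesterases were followed through 30 mouse hearts by the counts of 10 genes, 5 long-chain synthetases (Acsl1, Acsl3, Acsl4, Acsl5 and Acsl6) and 5 thioesterases (Acot1, Acot2, Acot7, Acot9 and Acot13). They are the rows, out of 55487 gene identifiers in the count table, whose symbol in the GENCODE mouse annotation is one of these names. All 10 were found and all 10 passed the filter on low counts in both cohorts. The study asked what the carnitine palmitoyltransferase Cpt1a does in the heart under pressure overload. Hearts were taken 8 weeks after transverse aortic constriction (TAC), in which a clip of 0.016 or 0.018 inch narrows the aorta, or after sham surgery. The labels do not say which mouse had which clip.

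The floxed cohort has 4 groups of 4 hearts. FF_sham and FF_TAC are mice with floxed Cpt1a alleles after sham surgery or TAC, and KO_sham and KO_TAC carry the label of a cardiac knockout of Cpt1a, which the design text calls a knockdown. The Cre line is not named, so which heart cells lose the gene cannot be read from the labels. The titles of the KO_TAC libraries contain both TAC and sham, and the group here follows the genotype label (knockout) and the treatment label (TAC). In the other cohort, named for AAV9, were C57Bl/6 mice. Of these, PBS_sham and PBS_TAC (3 hearts each) received saline, and AAV_sham and AAV_TAC (4 hearts each) received an AAV9 virus carrying Cpt1a, which by the design text is driven from a cardiac troponin T promoter and so is aimed at cardiomyocytes. Age and sex are not used here.

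A free long-chain fatty acid is neither burned nor built into lipid until an acyl-CoA synthetase joins it to coenzyme A. The acyl-CoA can then be burned in mitochondria after Cpt1 has passed it to carnitine, or be built into membrane and storage lipid. Thioesterases split the acyl-CoA and release the fatty acid and coenzyme A, in the cytosol or inside the organelle where each of them resides. In the heart, Acsl1 is known as the main long-chain synthetase. Several genes of both families, among them Acsl1, Acot1 and Acot2, are textbook targets of PPAR-alpha, the nuclear receptor that fatty acids activate.

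The promoters of Acsl1, Acot1 and Acot2, which fell furthest of the members from KO_sham to KO_TAC, and of Acot9, which rose furthest, are shown because the results turn on these genes. They are RefSeq sequences of build GRCm38.p6, 250 bases up to the base before the RefSeq start, and 9 of the 10 members had such an entry (12 entries in all). Capitals mark 2 promoter elements on either strand, the GC box GGGCGG (reverse complement CCGCCC) and the CCAAT box (reverse complement ATTGG). Acsl1 has 2 annotated starts on the plus strand, at chr8:46470787-46471036 and chr8:46490716-46490965. The Acot1 window is chr12:84009252-84009501 and the Acot2 window chr12:83987611-83987860, both on the plus strand of 1 thioesterase cluster. The Acot9 window is chrX:155262193-155262442, on the plus strand.
Acsl1 first start: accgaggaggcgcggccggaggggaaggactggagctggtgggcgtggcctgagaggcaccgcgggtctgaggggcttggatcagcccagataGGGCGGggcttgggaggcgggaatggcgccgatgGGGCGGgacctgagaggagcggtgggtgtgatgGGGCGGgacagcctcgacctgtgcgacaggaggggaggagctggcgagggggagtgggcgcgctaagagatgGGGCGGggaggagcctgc
Acsl1 second start: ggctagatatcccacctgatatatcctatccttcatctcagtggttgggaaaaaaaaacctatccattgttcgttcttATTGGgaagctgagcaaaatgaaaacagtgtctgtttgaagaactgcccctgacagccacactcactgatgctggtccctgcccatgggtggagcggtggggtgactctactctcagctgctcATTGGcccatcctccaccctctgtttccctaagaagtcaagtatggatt
Acot1: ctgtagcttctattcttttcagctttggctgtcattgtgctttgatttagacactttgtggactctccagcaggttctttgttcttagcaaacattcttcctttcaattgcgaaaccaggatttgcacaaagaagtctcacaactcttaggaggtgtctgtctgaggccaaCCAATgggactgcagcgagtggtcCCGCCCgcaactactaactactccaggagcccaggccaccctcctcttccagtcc
Acot2: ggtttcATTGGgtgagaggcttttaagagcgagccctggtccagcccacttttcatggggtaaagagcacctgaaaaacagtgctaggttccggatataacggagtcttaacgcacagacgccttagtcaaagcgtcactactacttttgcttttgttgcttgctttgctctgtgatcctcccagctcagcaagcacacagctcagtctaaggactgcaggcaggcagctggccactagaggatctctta
Acot9: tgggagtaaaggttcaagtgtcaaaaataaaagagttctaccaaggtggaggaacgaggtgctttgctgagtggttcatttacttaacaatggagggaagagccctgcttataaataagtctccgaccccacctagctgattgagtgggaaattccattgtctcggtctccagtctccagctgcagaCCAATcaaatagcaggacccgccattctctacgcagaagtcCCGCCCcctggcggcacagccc

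The first Acsl1 promoter was 72% G or C and held 4 GC boxes, whereas the second held none and had 2 CCAAT boxes. Acot1 and Acot9 each had 1 of either element, and Acot2 had 1 CCAAT box. Over the 12 entries, the GC box was present in 9 and the CCAAT box in 8. Among 32851 mouse promoter windows of 250 bases, these shares were 32.7% and 33.8%. The nuclear receptor core site AGGTCA occurred in 1 of the 12 entries, an Acsl6 start, against 14% of all windows. The DR1 element, that core site repeated in the same direction with 1 base of any kind between, occurred in 0 of the 12 entries and in 11 of the 32851 windows. All motifs were searched on both strands, and a match describes the letters of a window only.

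Some facts of the libraries touch all results below. Total counts ran from 14839758 to 22070373 per library. Levels are CPM, read counts relative to library size, scaled between the libraries of a cohort by TMM. Cpt1a itself stood at 37.8 to 52.7 CPM in FF_sham and at 11.1 to 19.6 CPM in KO_TAC. In KO_sham it was 22.5, 46.3, 20.3 and 23.7 CPM, so the library labelled KO_sham 2 lay inside the FF_sham range. In FF_TAC it was 48.9, 20.3, 16.2 and 34.0 CPM, so FF_TAC 2 and 3 lay below every FF_sham library and among the knockout values. In 7 floxed-cohort libraries (FF_TAC 2 and 3, KO_sham 2 and all of KO_TAC) the summed haemoglobin transcripts were 1.40 to 51.1 CPM, under the limit of 100 used here, and at least 294 CPM in all others. The same 7 had 2220 to 5820 CPM of 12 early response genes (Fos, Egr1 and others) against 224 to 323 CPM in the other floxed-cohort libraries. They are called haemoglobin-low below. KO_TAC 1 held the atrial transcript Myl7 at 3150 CPM. Myl7 was also present in FF_sham 2 (1110 CPM), KO_sham 2 (602 CPM), KO_sham 4 (393 CPM), FF_TAC 1 (74.3 CPM) and FF_sham 3 (36.8 CPM). In the AAV9 cohort, the sum of 3 atrial markers was 509 to 2600 CPM in PBS_sham and 2.05 to 1750 CPM in PBS_TAC. It was 2.12 to 2290 CPM in AAV_sham and 1.32 to 734 CPM in AAV_TAC. The medians were 648, 2.81, 205 and 1.84 CPM in that order. The library PBS_sham 3 had 26700 CPM of 8 cardiomyocyte markers against at least 51800 CPM in the rest of its cohort. It also had 1670 CPM of smooth muscle markers. In bulk tissue, fewer cells of a type and less RNA per cell cannot be told apart. Nothing says whether the hearts of a group were handled separately, so p-values measure the spread between these samples, which may be partly technical.

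Compared per kilobase of exon, the 2 families were each dominated by 1 gene. The level of Acot13 was 291 ± 86.4 CPM per kb (SD, n = 30 libraries) and that of Acsl1 67.7 ± 19.6 CPM per kb. Next came Acot2 (33.1 ± 8.67), Acot7 (31.7 ± 4.89) and Acot9 (11.7 ± 3.60 CPM per kb). The spread over 30 libraries includes the differences between groups, and the order of Acot2 and Acot7 changed with the group. In FF_sham, Acot2 was at 43.1 ± 6.41 and Acot7 at 35.0 ± 3.65 CPM per kb. In KO_TAC they were at 19.0 ± 2.54 and 29.3 ± 3.92 CPM per kb (SD, n = 4 each). Acsl5 stood at 4.95 ± 0.856 CPM per kb. The last 4, Acot1 (2.55 ± 1.59), Acsl4 (2.21 ± 0.368), Acsl3 (1.61 ± 0.314) and Acsl6 (1.53 ± 0.478 CPM per kb), overlapped in their spread over all libraries. Within groups they could lie apart, as in KO_TAC with Acot1 at 0.506 ± 0.282 and Acsl4 at 2.73 ± 0.425 CPM per kb. The order depends partly on the length used: with the longest transcript in place of all exons, Acsl1 was at 125, Acot7 at 44.8 and Acsl6 at 2.61 CPM per kb, which put Acot7 above Acot2 and Acsl6 above Acsl4. The sequence relatives in the same gene cluster were scarce, with Acot3 at 0.174, Acot4 at 0.276, Acot5 at 0.0012 and Acot6 at 0.538 CPM per kb, and Acot10, the relative of Acot9, at 0.0151 CPM per kb.

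**Figure D1:**
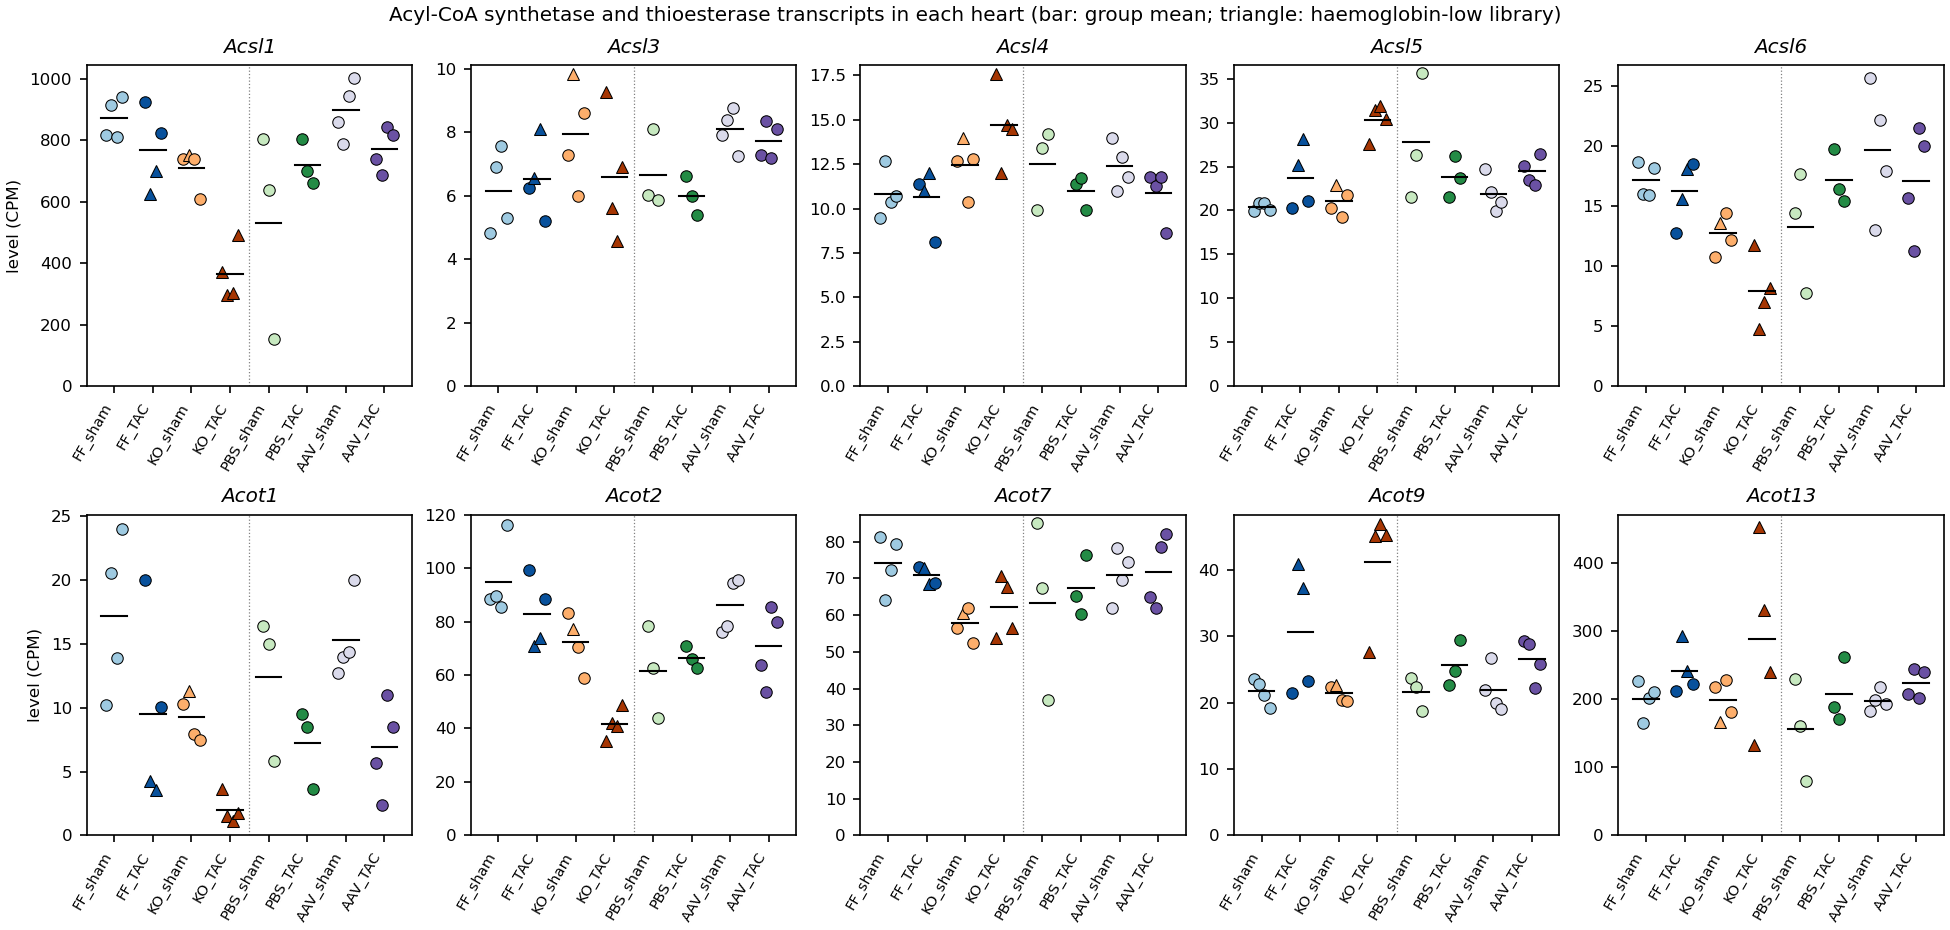
Level in CPM (vertical axes, linear from 0) of each of the 10 members in each of the 30 libraries, by group. Points are single hearts, bars are group means, and triangles are the 7 haemoglobin-low libraries. The 4 KO_TAC hearts lie lowest for Acsl1 and Acot2 within the floxed cohort, and PBS_sham 3 has the lowest Acsl1 point of all.

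Acsl1 (ENSMUSG00000018796, chr8:46471037-46536051 on the plus strand of GRCm38), which directs fatty acids towards oxidation in the heart, was lower in KO_TAC than in either reference group. It read 815, 915, 811 and 940 CPM in FF_sham, 925, 626, 700 and 824 CPM in FF_TAC, 740, 751, 737 and 609 CPM in KO_sham, and 371, 298, 303 and 491 CPM in KO_TAC. Every KO_TAC heart lay below all the other hearts of the cohort. Mean levels were 366 ± 89.8 CPM in KO_TAC and 709 ± 66.9 CPM in KO_sham (SD, n = 4 each). This is a 1.95-fold fall (log2 change -0.96, SE 0.16), with an adjusted p = 0.00186 by edgeR's quasi-likelihood test. Against FF_TAC, Acsl1 fell 2.1-fold (log2 -1.07, SE 0.16, adjusted p = 0.00113). The 2 comparisons share the KO_TAC libraries. The first held in all 16 fits that left 1 library out and with a term for the haemoglobin-low state (log2 -0.83, adjusted p = 0.0457, against 4.94e-07 to 0.0457 over its alternatives).

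Within the haemoglobin-low libraries alone, 4 KO_TAC hearts against FF_TAC 2 and 3, whose Cpt1a was also low, the log2 difference of Acsl1 was -0.88 (SE 0.24) with an adjusted p = 0.287, in a fit where 0 genes passed. The 4 KO_TAC values (298 to 491 CPM) did not overlap with the 2 FF_TAC values (626 and 700 CPM). Exons of Acsl1 share 1039 bases with Gm45244 on the opposite strand, so its count is uncertain to that extent if the counting ignored strand.

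The fall in Acsl1 went with a different make-up of the synthetase family. Per kilobase, Acsl1 supplied 89.8% ± 0.713 of the 5 synthetases' summed level in FF_sham, 87.7% ± 2.96 in FF_TAC and 87.3% ± 1.69 in KO_sham (SD, n = 4 each). In KO_TAC it supplied 75.1% ± 3.69, with hearts between 72.4% and 80.5%. The share of Acsl5 was 13.9% ± 3.03 in KO_TAC and 5.63% ± 0.705 in KO_sham. Since Acsl1 makes up most of the sum, its own fall raises the shares of the other genes. The level of Acsl5 was 6.24 CPM per kb in KO_TAC and 4.33 CPM per kb in KO_sham. That of Acsl1 was 34.9 and 67.7 CPM per kb. In the AAV9 cohort the Acsl1 share was 87.2% in PBS_TAC, 88.9% in AAV_sham and 87.4% in AAV_TAC. PBS_sham 3 had the lowest share of all libraries, 54.9%. The shares use the length of all exons and depend on it. With the longest transcript, Acsl1 in KO_TAC was at 64.4 in place of 34.9 CPM per kb and Acsl5 at 7.15 in place of 6.24 CPM per kb. The Acsl1 share is then larger and that of Acsl5 smaller. These shares are descriptions without a test.

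**Figure D2:**
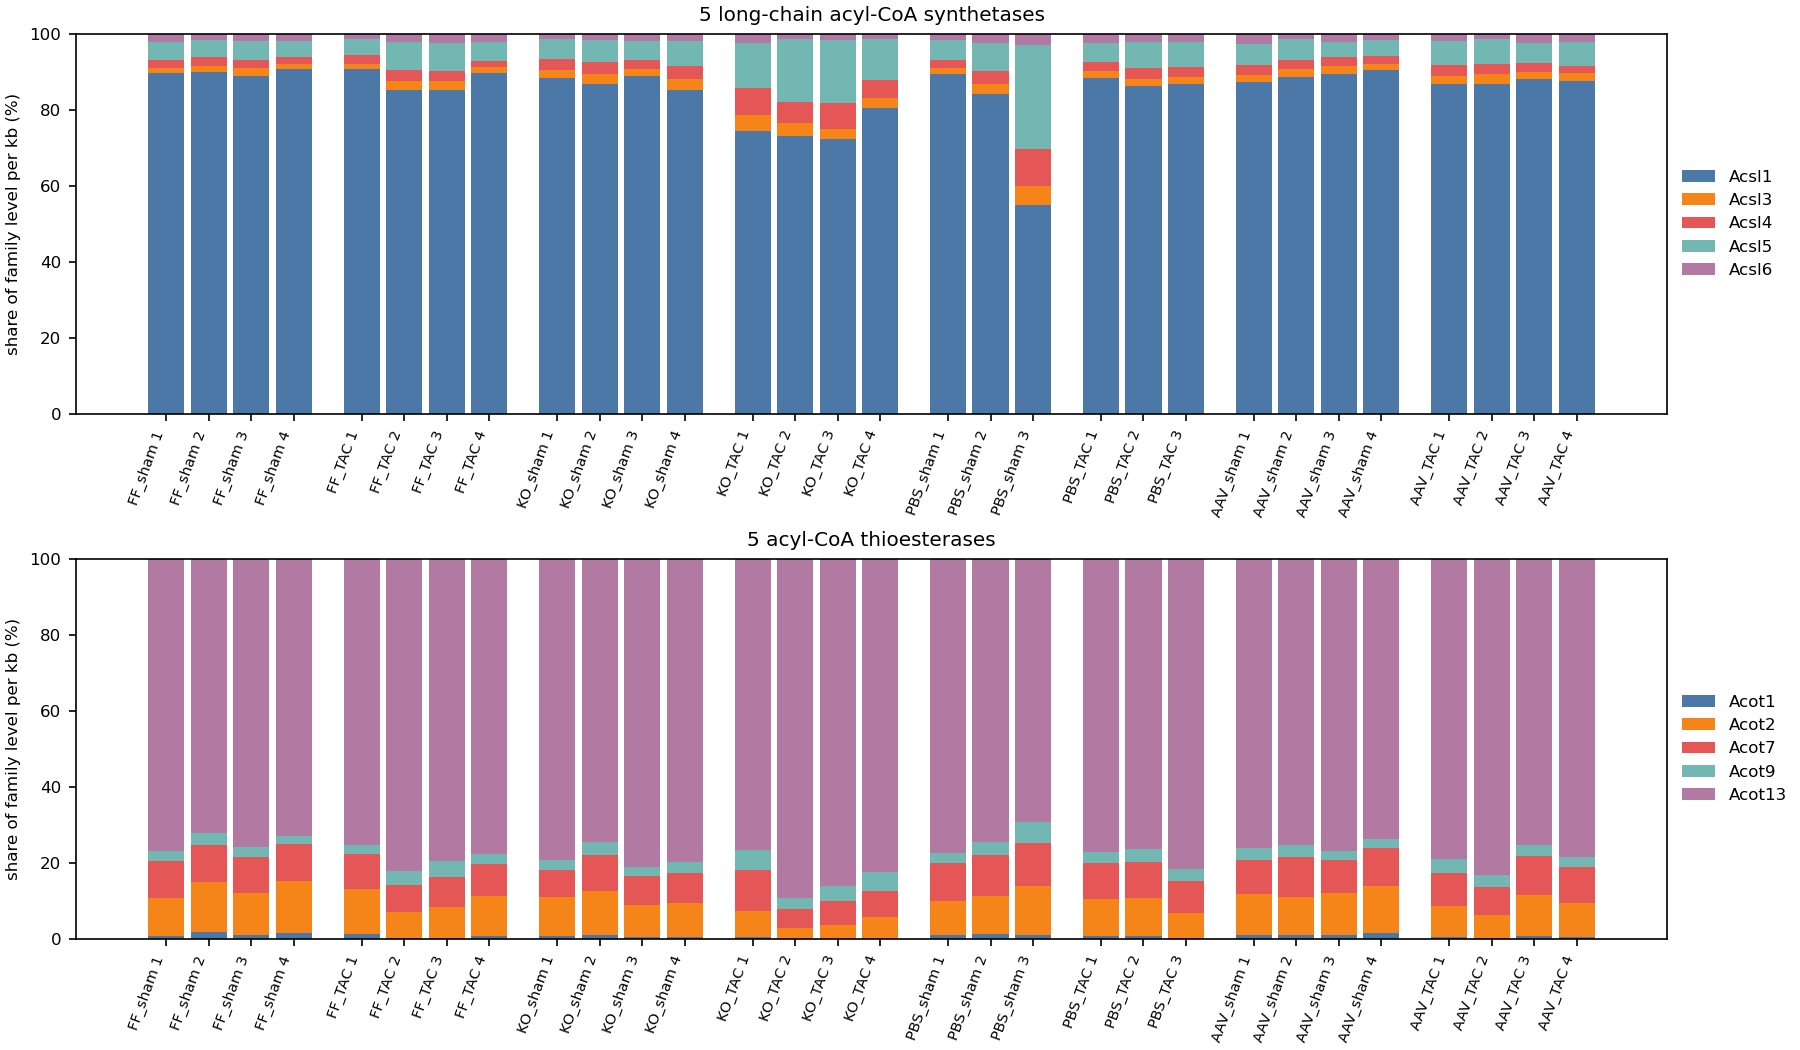
Share in percent (vertical axes, 0 to 100) of each gene in the summed level of its family per kilobase of all exons, 1 bar per library. The upper panel shows the 5 synthetases and the lower the 5 thioesterases. Acsl1 makes up 72.4% to 80.5% of the synthetase bar in the KO_TAC hearts and 54.9% in PBS_sham 3.

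Of the other synthetases, some rose and some fell. Acsl5 (ENSMUSG00000024981, chr19:55251938-55297720, plus strand), found on mitochondria and endoplasmic reticulum, was 20.3, 22.9, 19.2 and 21.8 CPM in KO_sham and 27.6, 31.4, 31.9 and 30.4 CPM in KO_TAC, without overlap. It rose by a log2 change of 0.53 (SE 0.10, adjusted p = 0.00395, edgeR). In FF_TAC it read 20.3, 25.2, 28.1 and 21.1 CPM, the 2 higher values in the haemoglobin-low hearts, which overlap with KO_TAC. The rise against FF_TAC was smaller (log2 0.36, SE 0.10, adjusted p = 0.0322). That call was lost without FF_TAC 1, FF_TAC 4, KO_TAC 2 or KO_TAC 3 (log2 0.29, 0.30, 0.34 and 0.33). With the haemoglobin term neither Acsl5 call remained (log2 0.32 and 0.23). Its exons share 404 bases with Zdhhc6 on the opposite strand.

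Acsl6 (ENSMUSG00000020333, chr11:54303798-54364756, plus strand), a synthetase best known from brain with a preference for docosahexaenoate, was 18.7, 16, 15.9 and 18.2 CPM in FF_sham and 12.8, 15.6, 18.1 and 18.5 CPM in FF_TAC. KO_sham read 10.8, 13.6, 14.4 and 12.2 CPM, and KO_TAC 11.8, 4.73, 7.01 and 8.22 CPM. KO_TAC and FF_TAC did not overlap, and Acsl6 fell 2.03-fold between them (log2 -1.02, SE 0.21, adjusted p = 0.00535, edgeR). This was kept with the haemoglobin term (log2 -1.08, adjusted p = 0.0149) and not when only FF_TAC and KO_TAC were fitted (log2 -1.04, adjusted p = 0.0641), over a range of 5.51e-05 to 0.317 for its alternatives. Against KO_sham it fell by 0.68 on the log2 scale (SE 0.21, adjusted p = 0.0283), with KO_TAC 1 inside the KO_sham range. That call was lost without KO_sham 2, 3 or 4 or KO_TAC 2 or 3, with log2 values of -0.50 to -0.70.

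Acsl4 (ENSMUSG00000031278, chrX:142317993-142390535, minus strand), which prefers arachidonate, was 11.4, 11, 12.0 and 8.12 CPM in FF_TAC and 17.6, 12.0, 14.7 and 14.5 CPM in KO_TAC. The lowest KO_TAC and the highest FF_TAC heart met at 12.0 CPM, and the rise (log2 0.47, SE 0.15, adjusted p = 0.0458, edgeR) passed the threshold by little. Leaving out any 1 library other than FF_sham 2, FF_TAC 3 or KO_TAC 2 lost the call, at log2 values of 0.36 to 0.50. Acsl3 (ENSMUSG00000032883, chr1:78657825-78707743, plus strand), a synthetase of lipid droplets that shares 244 exon bases with Utp14b on its own strand, ranged from 4.56 to 9.85 CPM over the floxed cohort and was not called in any comparison. Its log2 change was -0.26 (SE 0.23) from KO_sham to KO_TAC and 0.02 (SE 0.23) from FF_TAC to KO_TAC.

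Acot1 (ENSMUSG00000072949, chr12:84009490-84018371, plus strand), a cytosolic thioesterase, had the largest change of the members. It read 10.2, 20.6, 13.9 and 24.0 CPM in FF_sham and 20.0, 4.28, 3.56 and 10.1 CPM in FF_TAC. In KO_sham it was 10.3, 11.3, 7.91 and 7.47 CPM, and in KO_TAC 3.60, 1.5, 1.11 and 1.73 CPM, from 20 to 73 counts per library. All KO_TAC hearts lay below all KO_sham hearts. FF_TAC was split, with the 2 haemoglobin-low hearts at 3.56 and 4.28 CPM, on either side of the highest KO_TAC value, and the other two at 10.1 and 20.0 CPM.

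Acot1 was 4.59-fold lower in KO_TAC than in KO_sham (log2 -2.20, SE 0.51, adjusted p = 0.00856, edgeR) and 4.72-fold lower than in FF_TAC (log2 -2.24, SE 0.51, adjusted p = 0.0100). Both calls were lost with the haemoglobin term, at log2 values of -1.67 (adjusted p = 0.114, range over alternatives 9.48e-05 to 0.114) and -1.65 (adjusted p = 0.085, range 8.11e-05 to 0.516). Among haemoglobin-low libraries alone, the log2 difference from FF_TAC was -0.99 (SE 0.47). Without FF_TAC 1 it was -1.58, still called.

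Acot2 (ENSMUSG00000021226, chr12:83987861-83993873, plus strand), the mitochondrial counterpart of Acot1 in the same gene cluster, was 88.3, 89.4, 85.6 and 116 CPM in FF_sham and 99.2, 70.7, 73.7 and 88.3 CPM in FF_TAC. It was 83.1, 77.3, 70.5 and 58.9 CPM in KO_sham and 35.3, 42.1, 40.9 and 48.9 CPM in KO_TAC. KO_TAC lay below all 12 other hearts of the cohort. It fell 1.73-fold against KO_sham (log2 -0.79, SE 0.15, adjusted p = 0.00294, edgeR) and 1.99-fold against FF_TAC (log2 -0.99, SE 0.15, adjusted p = 0.00111). The fall from FF_TAC kept its call with the haemoglobin term (log2 -0.90, adjusted p = 0.00702) and measured -0.82 (SE 0.16, adjusted p = 0.205) in haemoglobin-low libraries alone, over a range of 2.7e-08 to 0.205. The fall from KO_sham measured -0.68 (adjusted p = 0.0618) with the term.

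Acot1 and Acot2 share sequence, so their counts are uncertain where a read fits both. Of the stretches of 100 bases, the read length, 12.49% of the Acot1 transcript occur also in Acot2 or Acot5, and 17.12% of the Acot2 transcript occur also in Acot1. How the counting treated such reads is not given in the sources used here. Acot3, whose transcript shares 16.567% of its stretches with Acot1, Acot4, Acot5, Acot6 and 2 further genes, read 14, 3, 14 and 11 counts in KO_sham and 0, 2, 0 and 1 counts in KO_TAC.

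Acot9 (ENSMUSG00000025287, chrX:155262443-155297654, plus strand), a mitochondrial thioesterase, was higher in KO_TAC than in KO_sham. It read 22.4, 22.6, 20.4 and 20.3 CPM in KO_sham and 27.6, 45.1, 46.9 and 45.2 CPM in KO_TAC, without overlap, with KO_TAC 1 apart from the other 3. The rise was 1.92-fold (log2 0.94, SE 0.20, adjusted p = 0.00548, edgeR), and with the haemoglobin term it was 0.55 on the log2 scale and lost its call (adjusted p = 0.192, range over alternatives 3.43e-05 to 0.192). In FF_TAC the haemoglobin-low hearts read 40.8 and 37.2 CPM and the other two 21.5 and 23.2 CPM, the latter inside the FF_sham range of 19.2 to 23.5 CPM. Against FF_TAC the log2 difference of KO_TAC was 0.43 (SE 0.20, adjusted p = 0.156), and 0.05 (SE 0.23) in haemoglobin-low libraries alone. It passed without KO_TAC 1 (log2 0.57, adjusted p = 0.0334) and by limma voom (log2 0.74).

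Acot13 (ENSMUSG00000006717, chr13:24817948-24831540, minus strand), a small mitochondria-associated thioesterase also known as Them2, was widely spread in KO_TAC, at 133, 452, 330 and 239 CPM against 218, 166, 228 and 181 CPM in KO_sham. The log2 difference was 0.54 (SE 0.26, adjusted p = 0.134, edgeR). Without KO_TAC 1, the library with 3150 CPM of atrial Myl7, it was 0.77 and passed (adjusted p = 0.00609). With all libraries and an atrial covariate, the Myl7 level, in the edgeR model it was 0.41 (SE 0.21, adjusted p = 0.151) and did not pass. What sets KO_TAC 1 apart was not tested. Acot7 (ENSMUSG00000028937, chr4:152178134-152271855, plus strand), a cytosolic thioesterase abundant in neurons, was 56.4, 60.6, 61.8 and 52.4 CPM in KO_sham and 53.7, 70.7, 67.7 and 56.4 CPM in KO_TAC. It was not called there (log2 0.10, SE 0.11).

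**Figure D3:**
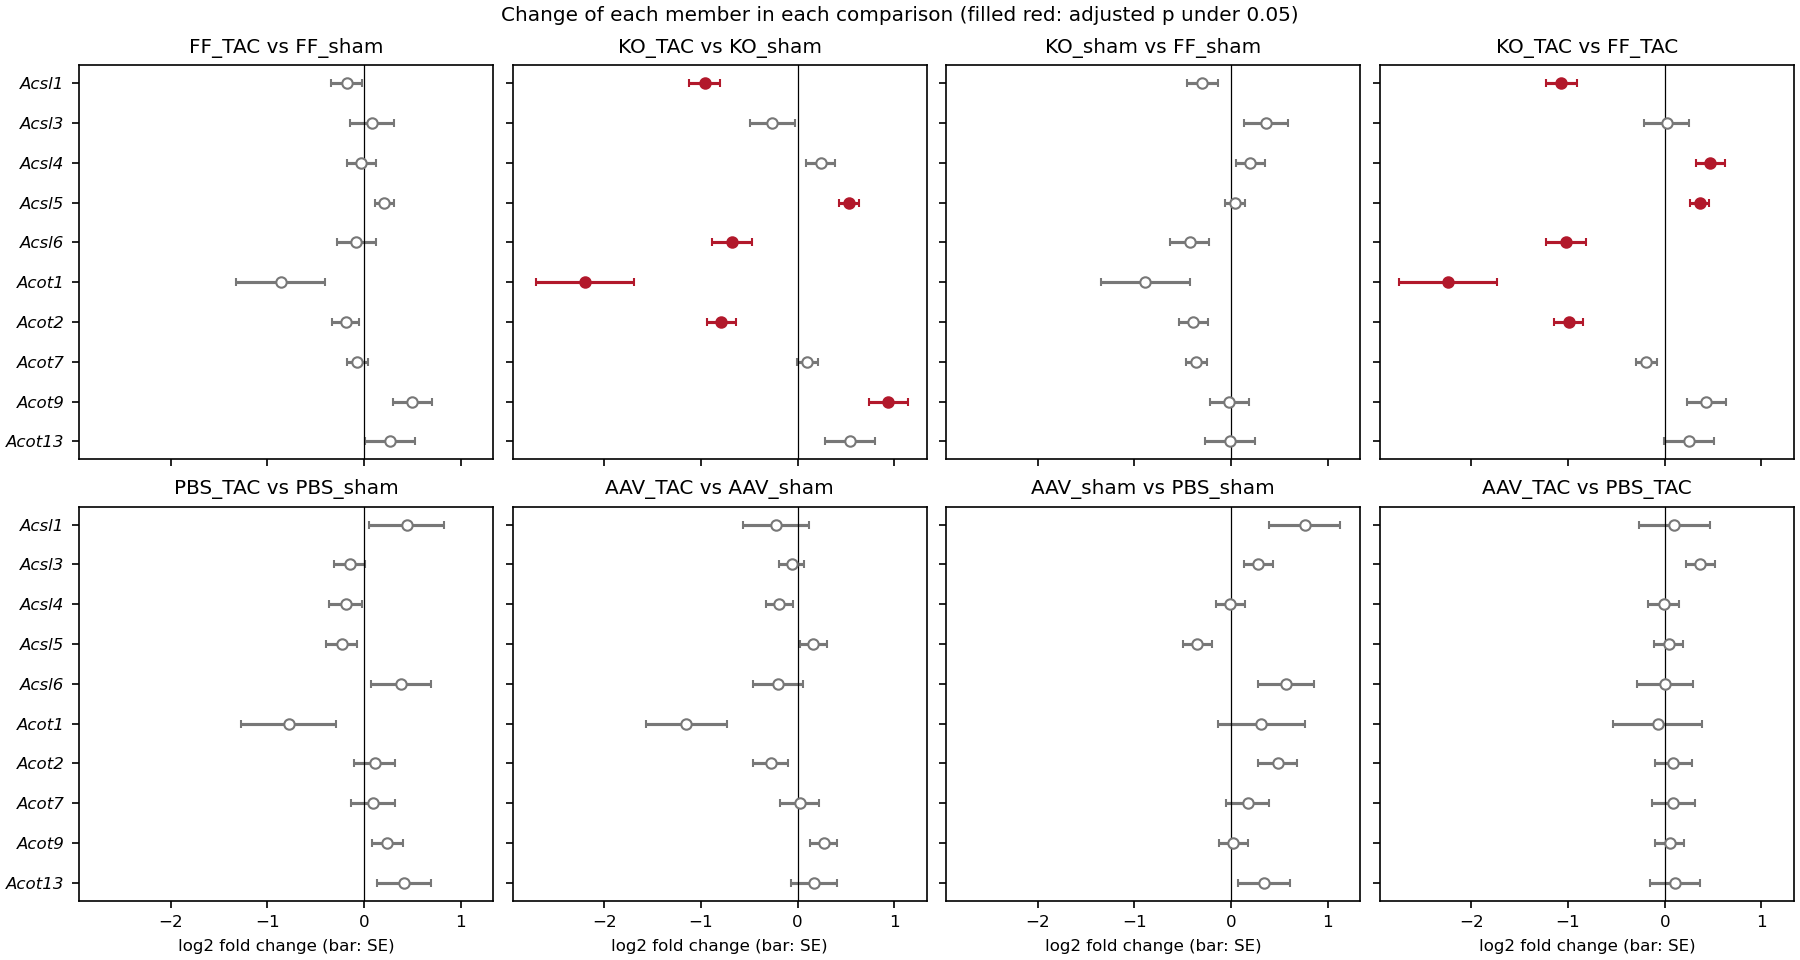
Log2 fold change (horizontal axes) with its SE of each member in each of the 8 comparisons of 2 groups. Filled red points have an adjusted p under 0.05. Called members occur in KO_TAC vs KO_sham and KO_TAC vs FF_TAC, 6 in each, and in none of the other 6 panels.

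Counted over the families, 6 of the 10 members were called in KO_TAC against KO_sham, 2 higher (Acsl5 and Acot9) and 4 lower (Acsl1, Acsl6, Acot1 and Acot2), beside 25.8% of all genes tested (14.3% higher and 11.5% lower). The libraries of 5 members did not overlap, beside 23.1% of all genes. In KO_TAC against FF_TAC 6 were called, 2 higher (Acsl4 and Acsl5) and 4 lower (Acsl1, Acsl6, Acot1 and Acot2), beside 14.3% of all genes (7.53% higher and 6.8% lower), and 3 did not overlap, beside 13.5%. The median log2 change of the members was -0.08 in both, beside 0.02 and 0.04 over all genes. With the haemoglobin term, 1 member (Acsl1) remained in the first comparison beside 273 genes, and 3 (Acsl1, Acsl6 and Acot2) in the second beside 1127 genes. Since every KO_TAC library was haemoglobin-low, the term rests on FF_TAC 2 and 3 against FF_TAC 1 and 4 and on KO_sham 2 against the rest of KO_sham. The Cpt1a level of KO_sham 2 lay in the floxed range. No member was called among haemoglobin-low libraries alone, where no gene was.

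**Figure D4:**
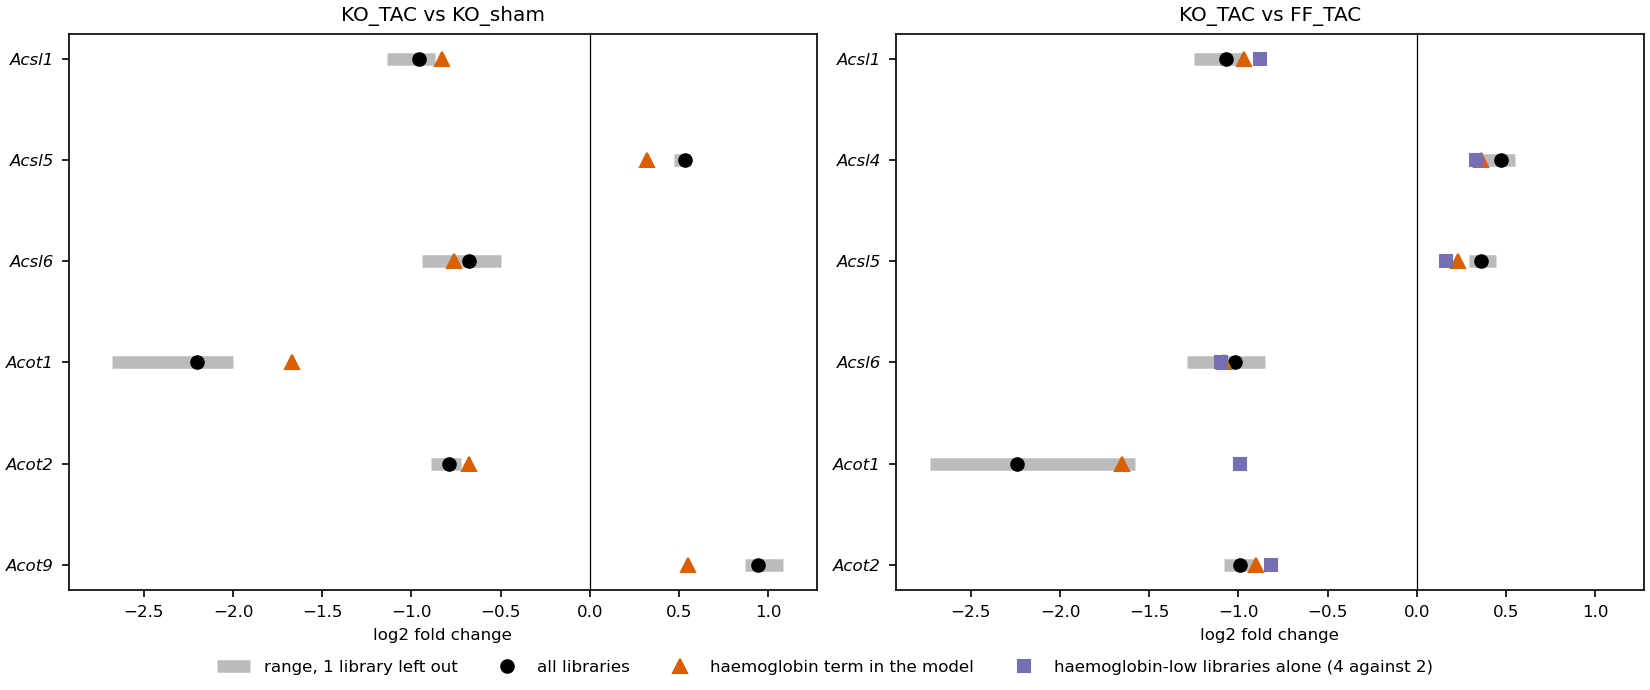
Log2 fold change (horizontal axes) of the called members in KO_TAC against KO_sham and against FF_TAC. Black points use all libraries, grey bars span the fits with 1 library left out, triangles have a haemoglobin term and squares use haemoglobin-low libraries alone. All marks of a gene lie on the same side of 0, and Acot1 against FF_TAC moves from -2.24 to -0.99.

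Markers of other cells moved between the same groups. The sum of 5 endothelial markers was 446 to 630 CPM in KO_TAC, 624 to 826 CPM in KO_sham and 660 to 892 CPM in FF_TAC, and 4 of the 5 were called lower in both comparisons. The sum of 5 fibroblast markers was 1270 to 1450 CPM in KO_TAC, 671 to 957 CPM in KO_sham and 726 to 829 CPM in FF_TAC, with 2 of 5 called higher. The 8 cardiomyocyte markers summed to 52800 to 58600 CPM in KO_sham and 55600 to 65400 CPM in FF_TAC. In KO_TAC 1 to 4 the sums were 44300, 70000, 49500 and 46400 CPM. Against KO_sham, 3 of the 8 were called lower and 1 higher, and against FF_TAC 2 lower and 0 higher. No marker of these 3 lists was at 0 in every library of a group. The part of these shifts in the members' changes was not tested.

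TAC in floxed mice without the knockout was compared with sham surgery next. Between FF_TAC and FF_sham 0 of 10 were called by edgeR, beside 0.0% of all genes, and 1 had an unadjusted p under 0.05. DESeq2 and voom also called 0 members, beside 168 and 0 genes. The log2 changes were -0.86 (SE 0.46) for Acot1, 0.50 (SE 0.20) for Acot9, 0.21 (SE 0.10) for Acsl5 and -0.18 (SE 0.16) for Acsl1. When the comparison was limited to haemoglobin-high libraries, FF_TAC 1 and 4 against the 4 FF_sham hearts, they were -0.19 (SE 0.34), 0.05 (SE 0.10), 0.02 (SE 0.08) and 0.01 (SE 0.11).

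The difference between the TAC effects of knockout and floxed mice was tested as an interaction. No member passed by edgeR, beside 0.0449% of all genes, and 3 had an unadjusted p under 0.05. The sizes were -0.78 (SE 0.22, adjusted p = 0.158) for Acsl1, -0.60 (SE 0.21, adjusted p = 0.222) for Acot2, -1.34 (SE 0.68, adjusted p = 0.414) for Acot1 and 0.31 (SE 0.15, adjusted p = 0.377) for Acsl5, in log2 units. DESeq2 called Acsl1 (adjusted p = 0.0384) beside 377 genes in all, as did edgeR without KO_TAC 4 (log2 -0.95, adjusted p = 0.04) beside 102 genes, where 7 genes were called with all libraries. Voom with sample weights called 5 members, Acsl1, Acsl5, Acsl6, Acot2 and Acot9, beside 2930 of 15596 genes. Acsl1 thus ran from 0.00499 to 0.356 over its alternatives.

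In sham hearts, 0 members were called between KO_sham and FF_sham by edgeR, beside 0.0% of all genes, and 2 had an unadjusted p under 0.05. DESeq2 and voom also called 0 members, beside 3 and 30 genes. The libraries of 4 members did not overlap, all lower in KO_sham, beside 6.77% of all genes without overlap and 3.55% of all genes lower without overlap. Acot7 was 52.4 to 61.8 CPM in KO_sham and 64.2 to 81.2 CPM in FF_sham (log2 -0.36, SE 0.11, adjusted p = 0.82). The others were Acot2 (log2 -0.39, SE 0.15), Acsl6 (log2 -0.43, SE 0.20) and Acsl1 (log2 -0.30, SE 0.16). Acot1 overlapped, at log2 -0.89 (SE 0.46). Without the library labelled KO_sham 2, whose Cpt1a lay in the floxed range, these 5 log2 values were -0.39, -0.42, -0.47, -0.33 and -1.01, with no call.

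In the AAV9 cohort no member passed the test. Acot1 read 12.7, 14, 14.4 and 20.0 CPM in AAV_sham and 5.70, 2.36, 11 and 8.50 CPM in AAV_TAC, without overlap, and 16.4, 15.0 and 5.83 CPM in PBS_sham against 9.54, 8.47 and 3.65 CPM in PBS_TAC. In AAV_TAC against AAV_sham its log2 difference was -1.15 (SE 0.42, adjusted p = 0.536, edgeR), the single member without overlap, beside 10.7% of all genes. Averaged over saline and vector, the TAC difference of Acot1 was -0.96 (SE 0.32, adjusted p = 0.149). It passed without PBS_sham 3 (log2 -1.14, adjusted p = 0.0415) and by voom (log2 -1.05, adjusted p = 0.0242), in fits that called 720 and 1219 genes in place of 143. Its alternatives ranged from 0.0242 to 0.634. The upper end came from the edgeR fit with the atrial covariate (log2 -0.83, SE 0.38), which called 0 genes. Acot9 averaged a log2 difference of 0.26 (SE 0.10, adjusted p = 0.215).

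Counts of called members were 0 in each of the AAV9 contrasts by edgeR. The share of all genes called was 0.0318% for PBS_TAC against PBS_sham, 0.00635% for AAV_TAC against AAV_sham and 0.908% for TAC averaged over both. For the vector it was 0.0127% in sham hearts, 0.0381% in TAC hearts, 0.0699% averaged and 0.00635% for its interaction with TAC. Members with an unadjusted p under 0.05 numbered 0, 1 and 2 in the first 3 and 2, 1, 1 and 0 in the last 4. DESeq2 called 0 in all 7, and voom 0 in all but the averaged TAC contrast.

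Cpt1a itself stood at 56.3 to 88.4 CPM in AAV_sham and at 37.4 to 68.0 CPM in PBS_sham. After TAC it was 44.8 to 62.7 CPM in AAV_TAC and 40.3 to 61.6 CPM in PBS_TAC. Both pairs of groups overlapped, so the Cpt1a counts do not set vector hearts apart from saline hearts. The vector comparisons follow the label and not a shown rise in Cpt1a. With the vector, Acsl3 was 7.30, 8.35, 7.20 and 8.12 CPM in AAV_TAC and 6.61, 5.99 and 5.40 CPM in PBS_TAC, without overlap, beside 8.47% of all genes. The log2 difference was 0.37 (SE 0.15, adjusted p = 1.0, edgeR). Acsl1 was 859, 788, 945 and 1001 CPM in AAV_sham and 802, 639 and 154 CPM in PBS_sham. Its log2 difference of 0.76 (SE 0.37, adjusted p = 0.258) became 0.32 (SE 0.13, adjusted p = 0.37) without PBS_sham 3. Without PBS_sham 1, Acsl5 (log2 -0.49, adjusted p = 0.0344) and Acot2 (log2 0.70, adjusted p = 0.0357) passed in that contrast, in a fit that called 2821 of 15745 genes in place of 2. The PBS_TAC difference from PBS_sham for Acsl1, 0.44 with all libraries, was 0.00 (SE 0.13) without PBS_sham 3.

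Other genes of acyl-CoA metabolism were read from lists. Of 19 PPAR-alpha target genes of the heart, 9 were called lower and 0 higher in KO_TAC against KO_sham (11.5% of all genes were lower), and likewise 9 and 0 against FF_TAC (6.8% of all genes lower). The median log2 changes were -0.51 and -0.57, beside 0.02 and 0.04 over all genes. Ehhadh, a peroxisomal beta-oxidation enzyme, fell furthest of those called (log2 -0.76, SE 0.20, and -0.90, SE 0.20). With the haemoglobin term, 1 and 8 of the list were called lower, in fits that called 273 and 1127 of 15596 genes. The same fits gave the counts with this term for the lists below. Among haemoglobin-low libraries alone 0 of the list were called, and the list median was -0.51.

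Of the 9 other acyl-CoA synthetases tested, 3 were called lower and none higher in each comparison. Over all genes, 11.5% were lower against KO_sham and 6.8% against FF_TAC. Acsm5, a medium-chain synthetase, fell from 4.94 ± 2.22 CPM in KO_sham to 0.949 ± 0.118 CPM in KO_TAC (SD, n = 4 each, log2 -2.38, SE 0.35, adjusted p = 0.00102, edgeR). Its exons share 104 bases with those of Pdilt on the other strand. Of 6 other thioesterases, 2 were lower against KO_sham and 1 against FF_TAC. Acot11 was one of them, at 11.1 ± 0.831 CPM in KO_TAC and 17.7 ± 3.23 CPM in KO_sham (log2 -0.67, SE 0.17, adjusted p = 0.0136), with 1263 exon bases opposite Fam151a. With the haemoglobin term, 1 and 2 of the synthetases were called, and 0 of the thioesterases.

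Of 11 genes that make, carry or break down coenzyme A, 3 were lower and 0 higher in both comparisons. The shares of all genes lower were 11.5% and 6.8%. Slc25a42, the mitochondrial coenzyme A carrier, fell from 65.3 ± 7.00 to 28.0 ± 5.39 CPM against KO_sham (log2 -1.22, SE 0.24, adjusted p = 0.00372, edgeR). Of 5 acyl-CoA binding proteins 1 was higher in both, beside 14.3% and 7.53% of all genes higher. It was Acbd3, a protein of the Golgi, at 41.0 ± 2.80 CPM in KO_TAC against 27.0 ± 1.04 CPM in KO_sham (log2 0.60, SE 0.08, adjusted p = 0.000547, edgeR). With the haemoglobin term, 0 and 3 of the coenzyme A genes were called lower, and Acbd3's list kept 1 call in each.

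Of 12 genes of arachidonate release, reacylation and oxidation, 3 were higher and 2 lower against KO_sham, and 3 higher and 1 lower against FF_TAC. Over all genes, 14.3% were higher and 11.5% lower against KO_sham, and 7.53% and 6.8% against FF_TAC. Ptgis, prostacyclin synthase, rose by 1.45 (SE 0.19) and Alox5, a lipoxygenase of leukocytes, fell by 0.86 (SE 0.28) against KO_sham. Against FF_TAC, Ptges, a prostaglandin E synthase, rose by 1.71 (SE 0.39) and Lpcat3, which puts arachidonate into phospholipid, fell by 0.42 (SE 0.11), all in log2 units. Under the haemoglobin term, 1 was called higher and 0 lower against KO_sham, and 2 and 0 against FF_TAC. Ptgis and Lpcat3 share exon bases with a gene on the other strand (156 and 334). The sum of 5 macrophage markers was 140 to 183 CPM in KO_TAC, 116 to 211 CPM in KO_sham and 95.4 to 114 CPM in FF_TAC, and its part was not tested.

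Of 11 glycerolipid acyltransferases, 2 were higher and 2 lower against KO_sham, and 0 higher and 3 lower against FF_TAC. The shares of all genes were 14.3% higher and 11.5% lower against KO_sham, and 7.53% and 6.8% against FF_TAC. Dgat2, which makes triglyceride, fell in both, from 343 ± 48.0 CPM in KO_sham and 415 ± 12.2 CPM in FF_TAC to 196 ± 33.1 CPM in KO_TAC (log2 -0.81 and -1.08, SE 0.12 each). Agpat4 rose from 5.39 ± 0.579 to 22.8 ± 7.85 CPM against KO_sham (log2 2.08, SE 0.39). None was called higher and 1 lower in each comparison with the haemoglobin term. By edgeR, no gene of these 7 lists was called in FF_TAC vs FF_sham or KO_sham vs FF_sham, where no gene was.

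**Figure D5:**
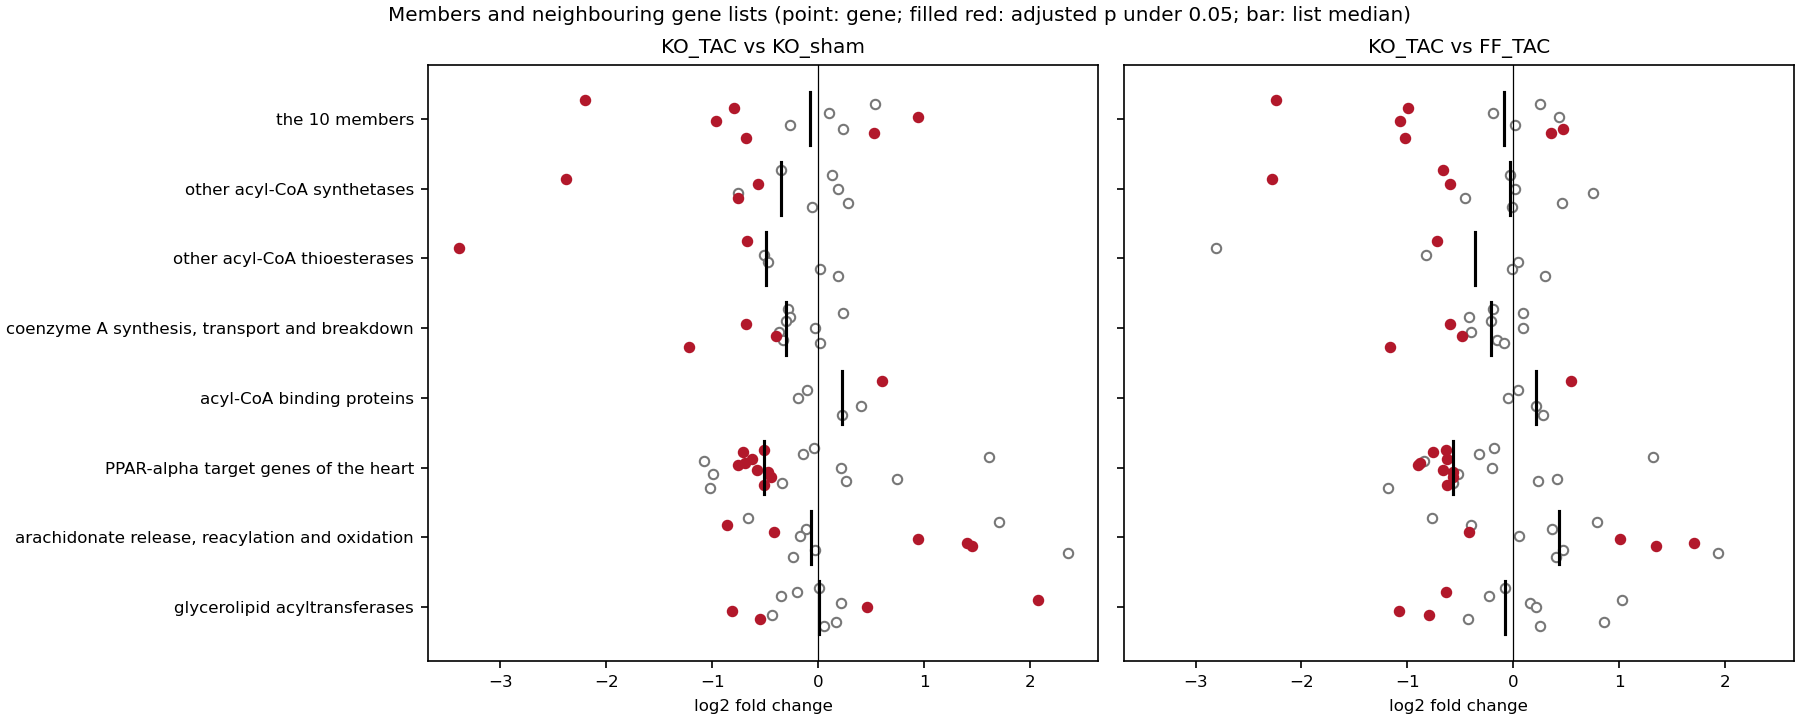
Log2 fold change (horizontal axes) of each tested gene of the members and of 7 lists in KO_TAC against KO_sham and against FF_TAC. Filled red points have an adjusted p under 0.05 and bars are list medians. The 9 called PPAR-alpha targets all lie to the left of 0, whereas the 6 called members lie on both sides.

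Genes with the pattern most like each member were ranked, among 10537 genes, by the lower of 2 Pearson correlations of log2 CPM, over the 16 floxed and the 14 AAV9 hearts. The points share their libraries, groups and composition, so r is a description. Acsl1 was closest to Dnajc28 (r = 0.98 and 1.0, 0.95 without PBS_sham 3), Ank and Galm. Acot2 was closest to Fbxo31 (r = 0.93 and 0.92), Pdp2 and Smco1, and Acot1 to Clcn3 (r = 0.94 and 0.94), Egflam and Slc26a6. Acot13 was closest to Timm17a (r = 0.98 and 0.98), Cisd1 and Timm8b, genes of mitochondrial proteins. Acot9 was closest to Arpc2 (r = 0.93 and 0.92), then Otulin and 1500009L16Rik. Acsl5 was closest to Actn1 (r = 0.91 and 0.89), Crip1 and Tpm3, and Acsl6 to Lmtk2 (r = 0.88 and 0.86), Parp1 and Rxra. Acot7 was closest to Vegfb (r = 0.90 and 0.94), Ecsit and Uqcrc1. The closest genes had lower values for Acsl4 (Suco, r = 0.73 and 0.72, then Igsf3 and Map3k2) and Acsl3 (Hnrnph2, r = 0.76 and 0.61, then Zmpste24 and Stam). Over the 9 haemoglobin-high floxed hearts alone, r was 0.20 to 0.40 for the 3 genes named for Acot9, and 0.72, -0.06 and -0.23 for those of Acsl5 in the order given. It was 0.54 to 0.74 for those of Acot1, 0.58 to 0.79 for those of Acsl6 and 0.51 to 0.92 for those of Acot2, and for the other members it ran from 0.54 to 0.97. Without PBS_sham 3, the AAV9 r was 0.69, 0.71 and 0.72 for the genes of Acsl5 and 0.85, 0.49 and 0.76 for those of Acot7. For those of Acsl1 it was 0.95, 0.90 and 0.78. It was 0.92 to 0.95 for those of Acot1, 0.88 to 0.93 for Acot9 and 0.95 to 0.97 for Acot13. For the remaining members it ran from 0.53 (Hnrnph2) to 0.88 (Pdp2).

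Between members, Acsl1 and Acot2 ran together (r = 0.95 over 16 floxed hearts, 0.81 over 14 AAV9 hearts and 0.91 without PBS_sham 3). Acsl1 and Acot1 had r = 0.91 over the floxed hearts and 0.37 over the AAV9 hearts, 0.61 without PBS_sham 3. Acsl1 and Acsl5 ran in opposite directions (r = -0.87 in both, -0.64 without PBS_sham 3).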

How the data were processed

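Poly(A) RNA of 30 mouse hearts was sequenced from a stranded kit with paired reads of 100 bases, per the labels' protocols. The authors deposited raw read counts per Ensembl gene. The submitters' processing notes name HISAT2 2.1.0, featureCounts, Subread 1.5.1 and GRCm38. The annotation release, the strand setting and the handling of reads that fit several genes are not given in the sources used here. Of 55487 identifiers, 55141 matched a symbol in GENCODE M21, and the others held 0.0192% of counts.

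Each cohort was fitted alone with edgeR 4.0.16 (quasi-likelihood, TMM, filterByExpr; 15596 genes in the floxed and 15745 in the AAV9 cohort) in R 4.3.3, over 12 comparisons. Benjamini-Hochberg adjustment ran over all genes tested, with a threshold of 0.05. The SE of an edgeR log2 change is its absolute size divided by the square root of the test's F statistic. The edgeR fit without further terms was tested on simulated counts of the floxed cohort for KO_TAC against KO_sham. The other models and comparisons were not tested in this way. The simulated libraries were drawn independently and without a haemoglobin-low state, so the simulation cannot speak to calls that move with that state. Correlations used log2 CPM with a prior count of 2. Alternatives used DESeq2 1.42.0, limma 3.58.1 voom with sample weights, RLE size factors, no filter, a mean of at least 5 CPM, a replicate block, all 30 libraries in 1 fit, only the groups compared, a haemoglobin term, haemoglobin-low or -high libraries alone, an atrial covariate and leaving out each library. Depth per library was 14839758 to 22070373 counts. No 2 libraries of a group agreed within sampling noise.

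All 10 members are named. Each list contributes its called genes of largest rise and largest fall, provided the higher group averaged 1 CPM or more, and for each member the 3 genes of most similar pattern. Members, lists and the haemoglobin and atrial alternatives were chosen with earlier results of these data known. Work on miR370 was not analysed here.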

Additional observations from a re-analysis of the deposited data

Results flagged for a closer look

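In groups of 4 hearts, a heart was singled out when its gap to the nearest other heart took more of the group's range than Dixon's critical value allows. Of 60 combinations of member and group, 4 met this, and chance gives about 1 in 20. Acsl1 in KO_sham 4 was 609 CPM, below the other hearts at 737 to 751 CPM. Acsl4 in AAV_TAC 4 was 8.60 CPM, below 11.3 to 11.8 CPM. Acot2 in FF_sham 4 was 116 CPM, above 85.6 to 89.4 CPM. Acot9 in KO_TAC 1 was 27.6 CPM, below 45.1 to 46.9 CPM. The 2 groups of 3 hearts were not examined.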

How the results depend on the processing

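No called value changed sign under any alternative. In KO_TAC against KO_sham the number of members called went from 6 to 1 with the haemoglobin term. In KO_TAC against FF_TAC it went from 6 to 2 with only the groups compared, to 3 with the haemoglobin term and to 0 among haemoglobin-low libraries alone, where fewer samples were fitted. The interaction of knockout and TAC went from 0 to 1 by DESeq2 and to 5 by voom, while all genes called went from 7 to 377 and 2930. TAC averaged over PBS and AAV went from 0 to 1 by voom, and all genes called from 143 to 1219. The cause was not tested. Leaving out 1 library gave 0 to 1 in the interaction, 0 to 2 in AAV_sham against PBS_sham and 0 to 1 in averaged TAC. The fits with the higher counts called 102 (without KO_TAC 4), 2821 (without PBS_sham 1) and 720 genes (without PBS_sham 3).

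Over all genes, KO_TAC against KO_sham called 4031 genes by edgeR, 8336 by voom and 2327 with only the groups compared, and KO_TAC against FF_TAC called 2235, 6002 and 557. Leaving out 1 library gave 1956 (without KO_TAC 3) to 6441 genes (without KO_TAC 1) in the first and 1124 (without FF_TAC 4) to 3845 (without KO_TAC 1) in the second. Same-numbered libraries did not deviate together (r from -0.457 to 0.481 over 24 floxed pairs and from -0.587 to 0.523 over 19 AAV9 pairs), so the numbers were not treated as pairs. With the replicate block, 6 members were called in KO_TAC against KO_sham and 5 in KO_TAC against FF_TAC, where Acsl4 was lost (log2 0.48), and 0 in the other comparisons. Without KO_sham 2, 9 PPAR-alpha targets were called lower and 0 higher in each comparison. Without KO_TAC 1, 10 were lower and 3 higher against KO_sham, and 10 lower and 1 higher against FF_TAC. These PPAR-alpha counts, and those with the haemoglobin term, were chosen after seeing the data. With the longest transcript, levels per kilobase moved by more than 1 SD between libraries for Acsl1, Acsl6 and Acot7, and within 1 SD for the other 7, among them Acot1 (2.55 to 3.82 CPM per kb). Depth limits Acot1, with 20 to 73 counts in KO_TAC.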
